A study of Rattus norvegicus with 12 samples.

Results

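The change of lens gene expression between 4 and 8 weeks of age was examined in the Ihara Cataract Rat (ICR), a rat strain with hereditary cortical cataract. Of the 12 arrays of the series, 6 were compared here, 3 of 4-week-old ICR/Ihr lenses labelled as without cataracts and 3 of 8-week-old ICR/Ihr lenses labelled with cortical opacity. The remaining arrays were 3 of 10-week-old ICR/Ihr lenses, also with opacity, and 1 each of clear lenses from 4-, 8- and 10-week-old Sprague Dawley (SD) rats. All lenses were from male rats, and total RNA was hybridized to the GeneChip Rat Gene 2.0 ST array. The labels do not say whether the arrays of an age came from separate animals or pooled lenses, so the p-values given here reflect the spread among these arrays, which may be technical. Age and opacity changed together in ICR, and growth and cataract cannot be told apart within this strain. The SD arrays, which show growth without opacity, have no replicate. The labels speak of lenses taken out of culture medium before extraction and name no treatment.

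The lens grows throughout life by adding fibre cells at its equator, where epithelial cells leave the cell cycle, elongate, fill with crystallins and then degrade their nuclei and organelles. Mature fibres do little transcription, so RNA of a whole lens comes mainly from the epithelium and the young cortical fibres. Cortical cataract begins in these outer fibres, which swell and break down, and calcium-activated proteases of the calpain family are well known for their part in rodent cataract. In RNA of whole lenses, fewer cells of a type and less RNA per cell cannot be told apart.

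Signals were log2 values of the Robust Multi-array Average (RMA), in which a difference of 1 is a 2-fold change. Of 18195 genes with a named probe set, 4572 were tested because their signal reached 5 on 1 or more of the 9 ICR arrays. Between 3130 and 3948 genes reached a signal of 5 on an ICR array. All 6 fibre markers and all 6 epithelial markers named on the array were among the genes tested, with mean signals over the list of 10.45 to 10.73 and of 6.98 to 7.29. No named marker of red blood cells, leukocytes, endothelium, pigment cells, cornea or muscle reached 5 at 4 or 8 weeks, the highest being *Tyrp1* at 4.37. The 3 arrays numbered 1 were set off from the other 6 ICR arrays at each age, along a principal component with 67.1% of the variance. Each 8-week array was set beside the 4-week array of the same number, and the fit had the number as a block.

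Between 4- and 8-week-old ICR lenses, 11 genes passed the test. *Ass1*, *Thrsp* and *Capn6* increased, 3 of the 4572 genes tested (0.0656%). *Capn3*, *Gca*, *Hmox1*, *Slc20a2*, *Igf2bp2*, *Sipa1l1*, *Osbpl11* and *Nt5dc2* decreased, 8 genes (0.175%). Each of the 11 differed in the same direction in all 3 array pairs, as did 36.2% of all genes tested. The 11 were selected by a fit on these same pairs, so nothing is read from this. The test was limma with the replicate block over the 9 ICR arrays, 2-sided, with Benjamini-Hochberg adjustment to 0.05, and 659 genes had an unadjusted p under 0.05. Without the block no gene was called (0 genes, 249 at an unadjusted p under 0.05), although 9 of the 11 had an unadjusted p under 0.05 in that fit. With no minimum signal none of the 18195 genes was called (0 genes, while 1384 had an unadjusted p under 0.05). *Gca* had reached the minimum on 2 of the 9 arrays, both at 4 weeks, and *Capn6* on 1 array at 10 weeks, in each case the age with its highest mean. The count also rested on single arrays: it was 0 when 4-week replicate 1 or any 1 of the 3 8-week replicates was left out. Leaving out 4-week replicate 2 gave 1 gene (*Capn3*), as did leaving out 10-week replicate 2. The count was 6 when 10-week replicate 1 was dropped, 5 when it was 10-week replicate 3, and 69 when it was 4-week replicate 3.

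*Capn3*, which encodes a calpain known in rodent lens as the splice form Lp82, had the smallest p. Its signals were 6.96, 7.33 and 6.38 in 4-week-old lenses numbered 1, 2 and 3, and 5.68, 5.27 and 5.04 in 8-week-old lenses. Every 8-week array lay below every 4-week array, and the mean fell by 1.56 on the log2 scale (SE 0.16, adjusted p = 0.013, n = 3), a 2.95-fold decrease. Splice forms were not measured apart here. At 10 weeks the mean was 4.22 ± 0.24 (standard deviation, n = 3). The SD lens was at 6.09 at 4 weeks and fell by 1.09 to 8 weeks.

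*Gca*, which encodes the calcium-binding protein grancalcin, had 4-week signals of 6.35, 5.76 and 4.79 and 8-week signals of 4.69, 4.09 and 3.67. The groups did not overlap, and the mean fell by 1.48 (SE 0.17, adjusted p = 0.0162), a 2.80-fold decrease. Its highest 8-week value and its lowest 4-week value differed by little, whereas the pair differences of -1.66, -1.67 and -1.13 were all large. The SD lens showed 4.42 at 4 weeks and 3.71 at 8 weeks.

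*Hmox1*, heme oxygenase 1, opens the ring of heme and releases its iron. Its signals were 8.24, 8.05 and 6.99 at 4 weeks and 7.23, 6.60 and 6.06 at 8 weeks. Replicate 1 at 8 weeks lay above replicate 3 at 4 weeks, so that the groups overlapped, yet each pair fell and the mean fell by 1.13 (SE 0.15, adjusted p = 0.0279). The SD difference was -0.70. None of the other 11 tested genes of the heme and iron list was called, and the ferritin genes *Fth1* and *Ftl1* had differences of -0.10 and 0.02.

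*Igf2bp2* encodes an RNA-binding protein that controls the stability and translation of mRNAs. The 4-week signals were 8.03, 7.99 and 7.80 and the 8-week signals 7.12, 7.08 and 7.14. Standard deviations within an age, 0.12 and 0.03, were small beside the difference of -0.83 (SE 0.11, adjusted p = 0.0279). SD lenses showed 7.59 and 7.50 at these ages and 6.78 at 10 weeks.

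*Slc20a2*, a sodium-dependent phosphate transporter, had signals of 7.35, 7.39 and 7.01 at 4 weeks and of 6.53, 6.46 and 6.03 at 8 weeks (difference -0.91, SE 0.14, adjusted p = 0.0479). *Sipa1l1*, a GTPase-activating protein for Rap, had signals of 8.14, 7.84 and 7.53 and then 7.10, 6.91 and 7.02 (difference -0.83, SE 0.13, adjusted p = 0.0479). *Osbpl11*, of the oxysterol-binding protein family, had signals of 7.02, 6.70 and 6.72 and then 6.07, 6.12 and 5.89 (difference -0.78, SE 0.12, adjusted p = 0.0479). In these 3 genes the age groups did not overlap, and the change was visible in each pair. *Nt5dc2* had signals of 10.64, 9.51 and 9.51 and then 9.90, 8.68 and 8.90 (difference -0.73, SE 0.11, adjusted p = 0.0456). Here replicate 1 stood high at both ages, so the groups overlapped while the pairs fell by 0.62 to 0.83.

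*Ass1*, argininosuccinate synthase, joins citrulline and aspartate in the route to arginine, and showed the largest rise of all genes tested. Its signals were 7.77, 6.63 and 7.92 at 4 weeks and 9.44, 9.20 and 8.78 at 8 weeks. All 8-week arrays were above all 4-week arrays, with a mean difference of 1.70 (SE 0.27, adjusted p = 0.0479), a 3.25-fold increase. The pairs ranged from 0.86 in replicate 3 to 2.57 in replicate 2, whose 4-week array was the low one. The SD lens went from 7.32 to 8.27 and was at 7.84 at 10 weeks. Of the other 8 tested genes in the arginine and polyamine list none was called, and *Slc7a1*, an arginine importer, had a difference of -0.65 (SE 0.17, adjusted p = 0.135).

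*Thrsp* encodes a nuclear protein that promotes fatty acid synthesis. Its signals varied widely within an age, with 5.57, 3.81 and 4.63 at 4 weeks and 7.08, 4.98 and 5.20 at 8 weeks. The groups overlapped, and the rise was seen within pairs, at 1.51, 1.17 and 0.58 (mean 1.09, SE 0.17, adjusted p = 0.0479). Without the block its unadjusted p was 0.192. The SD difference was 0.45.

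*Capn6*, a calpain that lacks the catalytic cysteine and binds microtubules, was low but steady, with 4.09, 3.94 and 3.99 at 4 weeks and 4.85, 4.78 and 4.54 at 8 weeks. The groups did not overlap (difference 0.72, SE 0.12, adjusted p = 0.0479). All 6 of these signals were under 5, and the gene was tested only because 10-week replicate 1 reached 5.13. In the calpain list *Capn3* and *Capn6* were the genes called, and the other 4 tested, *Capn2*, *Capns1*, *Capn7* and the inhibitor *Cast*, had differences between -0.13 and 0.12.

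**Figure D1:**
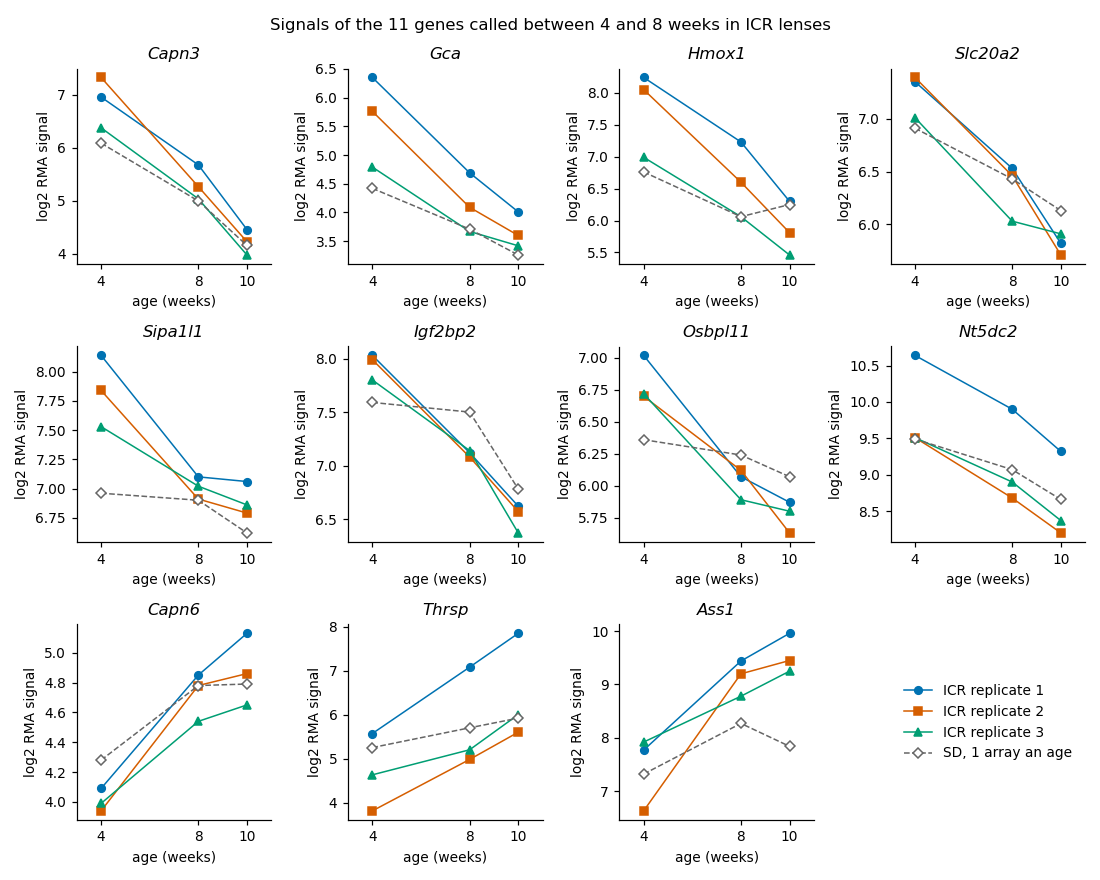
Log2 RMA signals (vertical axes, each with its own range) against age in weeks for the 11 called genes. Lines join ICR arrays of the same number, and open diamonds with dashed lines are the single SD arrays. In each of the 11 panels the 3 ICR lines run in one direction from 4 to 8 weeks, and in *Thrsp*, *Nt5dc2* and *Hmox1* the replicates are offset by at least as much as the mean changes.

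In all 11 genes the 10-week mean lay beyond the 8-week mean in the direction of the change. The 10-week differences use the same 4-week arrays and are given only side by side. *Capn3* was at -1.56 at 8 weeks and -2.67 at 10 weeks, *Igf2bp2* at -0.83 and -1.42, *Thrsp* at 1.09 and 1.82, and *Sipa1l1* at -0.83 and -0.93. The 10-week minus 8-week difference was -0.10 for *Sipa1l1* and -1.11 for *Capn3*.

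For 4 of these genes, 3 that increased and the decreased gene with the smallest p, the 250 bases before the transcription start are shown, from RefSeq on GRCr8. The search took in the 9 of the 11 called genes that have an entry. Letters searched on both strands were CCAAT (the CCAAT box), TGCTGA (a half-site of MAF factors), TATAAA (the TATA box), CACGTG (the E-box), TCACCCCAC (a sterol response element) and TGACNNNGC (an antioxidant response element), and capitals mark each match.
Capn3: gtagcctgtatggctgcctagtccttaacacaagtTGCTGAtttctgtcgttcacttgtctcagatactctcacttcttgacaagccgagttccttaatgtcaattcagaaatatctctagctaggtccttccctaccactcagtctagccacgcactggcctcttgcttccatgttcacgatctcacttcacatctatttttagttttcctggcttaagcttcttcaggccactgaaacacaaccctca
Ass1: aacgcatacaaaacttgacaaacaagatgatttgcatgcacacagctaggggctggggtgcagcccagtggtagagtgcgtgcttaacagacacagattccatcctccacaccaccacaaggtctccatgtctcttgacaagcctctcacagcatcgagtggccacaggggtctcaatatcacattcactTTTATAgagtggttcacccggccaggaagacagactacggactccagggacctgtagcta
Thrsp: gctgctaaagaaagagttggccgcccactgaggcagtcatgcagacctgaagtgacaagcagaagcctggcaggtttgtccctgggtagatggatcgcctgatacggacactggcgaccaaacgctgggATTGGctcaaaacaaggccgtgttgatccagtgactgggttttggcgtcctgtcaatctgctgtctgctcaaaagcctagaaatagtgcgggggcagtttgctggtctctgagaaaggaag
Capn6: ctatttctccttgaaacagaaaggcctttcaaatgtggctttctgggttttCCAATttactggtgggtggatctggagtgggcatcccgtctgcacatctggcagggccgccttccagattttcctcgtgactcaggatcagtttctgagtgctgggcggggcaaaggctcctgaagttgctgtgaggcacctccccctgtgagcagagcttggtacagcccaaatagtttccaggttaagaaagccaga

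The *Capn3* stretch lies at chr3:127861340-127861589 (plus strand) and has the MAF half-site at -215. The *Ass1* stretch, at chr3:35149480-35149729 (plus strand), has the letters of the TATA box on the opposite strand at -60. Those of *Thrsp* at chr1:161138965-161139214 and *Capn6* at chrX:112202179-112202428 (both minus strand) each have a CCAAT box, at -121 and -199. The CCAAT box was found in 4 of the 9 genes and in 34.0% of all 33469 promoter entries, the MAF half-site in 2 and in 15.1%, the antioxidant response element in 2 and in 10.1%, and the TATA box in 1 and in 12.9%. The E-box, in 5.59% of all entries, and the sterol response element, in 0.409%, were found in none of the 9. A match is a run of letters and no binding was measured. Whether these RefSeq starts, that of *Capn3* among them, are the ones used in the lens was not tested.

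Across the genes tested, the change from 4 to 8 weeks leaned downward. The median difference was -0.065, 2889 genes had a difference below 0 and 1683 above, and 1657 (36.2%) had the same sign in all 3 pairs, 477 of them higher at 8 weeks. For 387 genes (8.46%) all 8-week arrays lay below all 4-week arrays, and for 90 genes (1.97%) above. This balance depended on the scaling, since cyclic loess gave 232 lower and 167 higher genes and quantile normalization 227 and 140, with medians of 0.002 and -0.007. It depended also on the minimum signal, since over all 18195 genes 881 were lower and 831 higher, with a median of 0.011. Of the genes tested, 294 reached 5 only on 4-week arrays, 82 of them only on 4-week replicate 2, whereas 136 did so only on 8-week and 98 only on 10-week arrays. A gene that passed only through the age at which it is high had to differ, so counts and medians over the tested members of a list are descriptions of those members. At an unadjusted p under 0.05 there were 499 lower genes (10.9%) and 160 higher genes (3.5%). The gene lists below are given beside these shares. Those lists were chosen with earlier results of these data known. Several hold genes that the study had selected from these same arrays. Among them are those of organelle clearance, lens transcription factors, the fibre membrane and cytoskeleton, fatty acid synthesis, cholesterol synthesis and epithelial-mesenchymal transition. In such lists a share above 10.9% or 3.5% is in part built in. List members with no named probe set, or below a signal of 5 on each ICR array, were not tested.

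Group means were also compared alone, with the limits of fold change used in the study. By these, 25 genes (0.547%) increased > 1.5-fold, and the signals of 5 genes (0.109%) fell by more than 1.17 on the log2 scale. These counts are over the genes tested here. With its own choice of probe sets the study reported more genes in each direction. Of the 25, only *Ass1*, *Thrsp* and *Capn6* were called, and of the 5, *Capn3* and *Gca*. The other 3 decreased genes were *Lhx9* (difference -1.31, adjusted p = 0.153), *Slc26a4* (-1.19, adjusted p = 0.385) and *Garin4* (-1.18, adjusted p = 0.441), the last named after its value was seen. *Lhx9* reached 5 only on 4-week replicate 2 (5.63), and *Garin4* on that array (6.18) and 1 10-week array (5.28). *Lhx9* and *Slc26a4* belong to the ciliary body and iris list. Among increased genes that were not called, *Serpinb6a*, a serine protease inhibitor, had 4.89, 4.35 and 4.69 at 4 weeks and 6.48, 4.92 and 5.24 at 8 weeks (difference 0.90, adjusted p = 0.0871). *Fn3k*, the kinase that removes fructosamine from glycated proteins, had a difference of 0.79 (adjusted p = 0.0686), and *Ptgds*, a prostaglandin D synthase, one of 0.84 (adjusted p = 0.146). Each was higher in 3 of 3 pairs, and all missed the threshold.

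Crystallins fill the fibre cell and give the lens its refractive power. Of 16 crystallins listed, 10 had a probe set with a single symbol and were tested. None was called, and their median difference was -0.06, equal to that of all genes at this rounding. The differences of 3 gamma crystallins lay apart from those of the other 7. *Crygn* had 11.41, 11.07 and 10.11 at 4 weeks and 10.50, 9.41 and 9.50 at 8 weeks (difference -1.06, SE 0.18, adjusted p = 0.0554). *Crygf* had 11.74, 10.71 and 10.77 and then 10.68, 9.79 and 9.85 (difference -0.97, SE 0.17, adjusted p = 0.0586), with pairs of -1.06, -0.92 and -0.92. *Cryge* differed by -0.50 (adjusted p = 0.179). The remaining 7, *Cryba1*, *Cryba2*, *Cryab*, *Crygb*, *Crygc*, *Crygd* and *Crygs*, lay between -0.09 and 0.09. In SD lenses *Crygf* differed by -1.10, *Cryge* by -0.66 and *Crygn* by -0.56. Gamma crystallin genes are near copies of each other, and cross-hybridization between their probe sets was not tested.

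Genes for the clearance of organelles and for proteolysis in fibres had a median of -0.33 over the 15 tested and of -0.09 over all 19 named on the array. None of the 15 tested was called. An unadjusted p under 0.05 with a lower signal at 8 weeks was found for 8 of the 15, beside 10.9% of all genes. The study had selected *Ube2o*, *Trex1*, *Fbxo7* and *Dnase2b* as decreased from these same arrays, so nothing is read from this share. *Ube2o*, a ubiquitin ligase that remodels the proteome of maturing red cells, had 7.69, 7.85 and 7.30 at 4 weeks and 7.08, 7.02 and 6.73 at 8 weeks. These groups did not overlap (difference -0.67, SE 0.11, adjusted p = 0.0554). *Dnase2b*, the DNase that degrades the nuclei of fibre cells, had 8.13, 7.36 and 7.18 and then 7.83, 6.82 and 6.59 (difference -0.47, SE 0.12, adjusted p = 0.116), lower in each pair, while the SD difference was 0.04. *Trex1*, a DNA exonuclease, differed by -0.86 (adjusted p = 0.116), and *Fbxo7* and *Stambpl1*, of the ubiquitin system, by -0.54 and -0.50 (adjusted p = 0.1 for both). *Ctsd* and *Lamp1*, of the lysosome, differed by -0.33 and -0.38. *Becn1*, *Sqstm1* and *Cdkn1b* were at 0.20, 0.19 and 0.18.

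Of 24 transcription factors and RNA-binding proteins of the lens, *Igf2bp2* was called, 9 had an unadjusted p under 0.05 and were lower, and 1 was higher, with a median of -0.24. *Maf*, an activator of crystallin genes, had 9.82, 10.20 and 9.86 at 4 weeks and 9.13, 9.57 and 9.52 at 8 weeks. Its groups did not overlap (difference -0.55, SE 0.13, adjusted p = 0.1), and the SD difference was -0.19. *Caprin2* and *Tnrc6b*, which act on mRNAs, differed by -0.70 (adjusted p = 0.0599) and -0.79 (adjusted p = 0.0607). *Hopx*, a homeodomain protein that does not bind DNA, was the one on the higher side at 0.53. The epithelial factors *Pax6* and *Foxe3* were at -0.11 and 0.10, and *Prox1* and *Hsf4*, which act in fibres, at -0.23 and -0.26 (unadjusted p = 0.0878 and 0.0609).

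**Figure D2:**
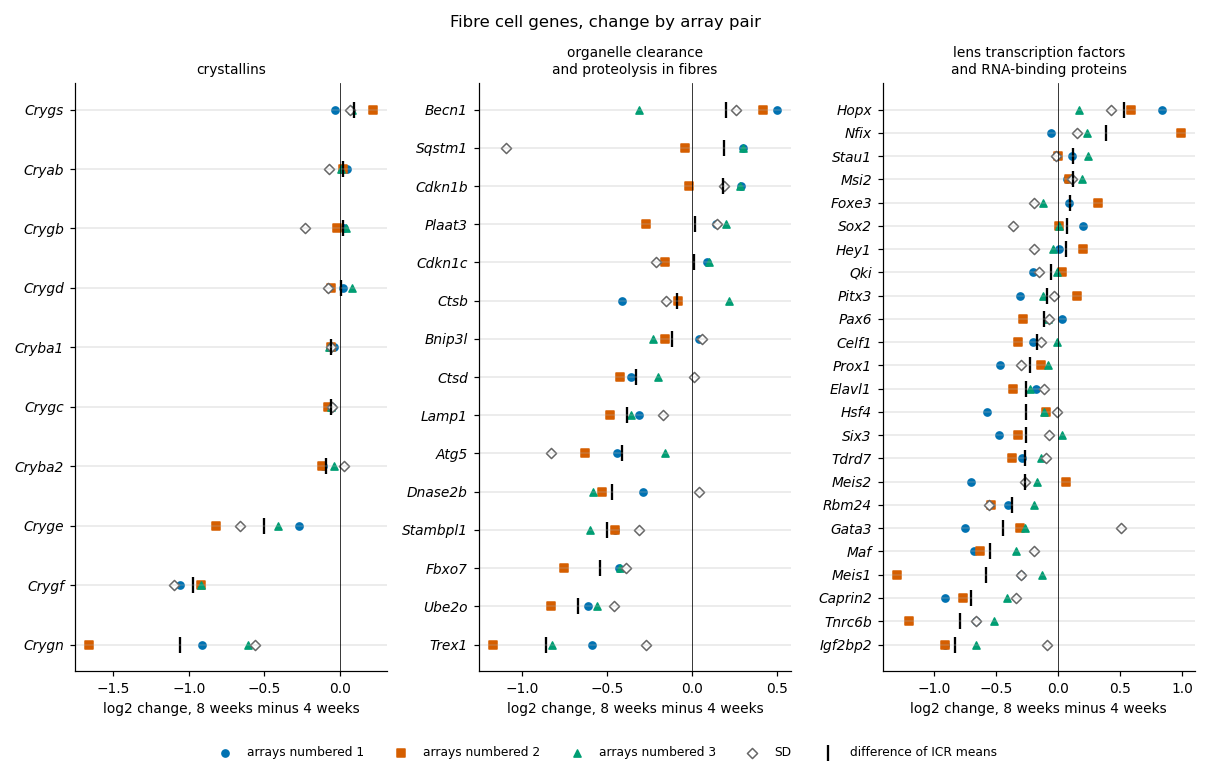
Log2 difference between 8 and 4 weeks (horizontal axes) for the tested genes of 3 lists, with 1 coloured symbol per ICR array pair, an open diamond for the SD arrays and a bar for the difference of the ICR means. *Crygn*, *Crygf* and *Cryge* stand apart from the other 7 crystallins, and the lower 8 genes of the organelle clearance list lie below 0 in all 3 pairs.

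Among 25 genes of the fibre membrane and cytoskeleton, none was called, and the median was -0.17. At an unadjusted p under 0.05, 7 were lower and 4 higher, beside 10.9% and 3.5% of all genes. The study had selected *Lgsn* as increased from these same arrays, so nothing is read from these counts. *Dsp*, desmoplakin of the desmosome, had 4.97, 5.19 and 4.09 at 4 weeks and 3.90, 3.63 and 3.53 at 8 weeks (difference -1.06, SE 0.25, adjusted p = 0.106). It was tested only through 4-week replicate 2, the 1 array that reached 5. *Kif5a*, a kinesin heavy chain, had 3.40, 3.19 and 3.94 and then 4.00, 4.38 and 4.50 (difference 0.78, SE 0.15, adjusted p = 0.0675), and was tested only through 10-week replicate 3, at 5.01. *Lgsn*, which encodes the lens protein lengsin, had 10.84, 9.87 and 11.23 and then 11.59, 11.46 and 11.45 (difference 0.86, SE 0.23, adjusted p = 0.146). Its pairs ran from 0.22 to 1.60, and much of the difference came from the low 4-week replicate 2. The water channel *Mip*, the main membrane protein of fibres, differed by 0.01, and the beaded filament gene *Bfsp1* by -0.19.

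Lipid genes were counted by pathway. Of 18 genes of fatty acid and triglyceride synthesis, *Thrsp* was called, 4 were higher and 1 was lower at an unadjusted p under 0.05, and the median was 0.04. *Srebf1*, the transcription factor that drives fatty acid synthesis genes, had 6.47, 6.20 and 6.92 at 4 weeks and 7.09, 7.49 and 7.38 at 8 weeks (difference 0.79, SE 0.19, adjusted p = 0.106). *Scd*, stearoyl-CoA desaturase, had 4.34, 4.80 and 4.63 and then 5.24, 5.27 and 5.23 (difference 0.66, SE 0.12, adjusted p = 0.0607). In both genes all 8-week arrays were above all 4-week arrays, and neither passed the threshold. *Acaca* and *Acly*, which make the building blocks of fatty acids, were at -0.07 and -0.08, and *Lpin1*, which makes diacylglycerol, at -0.38 (adjusted p = 0.189). *Pnpla3* differed by 0.28 (adjusted p = 0.364).

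Of 11 genes of cholesterol synthesis and uptake, none was called and 10 had a difference below 0, with a median of -0.27 and 3 lower at an unadjusted p under 0.05. Over all 21 members named on the array the median was -0.11. *Fdft1*, squalene synthase, had 6.96, 6.34 and 6.51 at 4 weeks and 6.59, 5.92 and 6.05 at 8 weeks (difference -0.42, SE 0.11, adjusted p = 0.146), and its pairs of -0.37, -0.42 and -0.46 were alike. *Idi1* and *Dhcr7*, enzymes of the same pathway, differed by -0.62 (adjusted p = 0.33) and -0.32 (adjusted p = 0.339). *Srebf2*, the main activator of this pathway, was at -0.02. *Apoe*, which carries lipid, differed by -0.79 (adjusted p = 0.349), with -1.83 in pair 2 and 0.01 in pair 3.

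**Figure D3:**
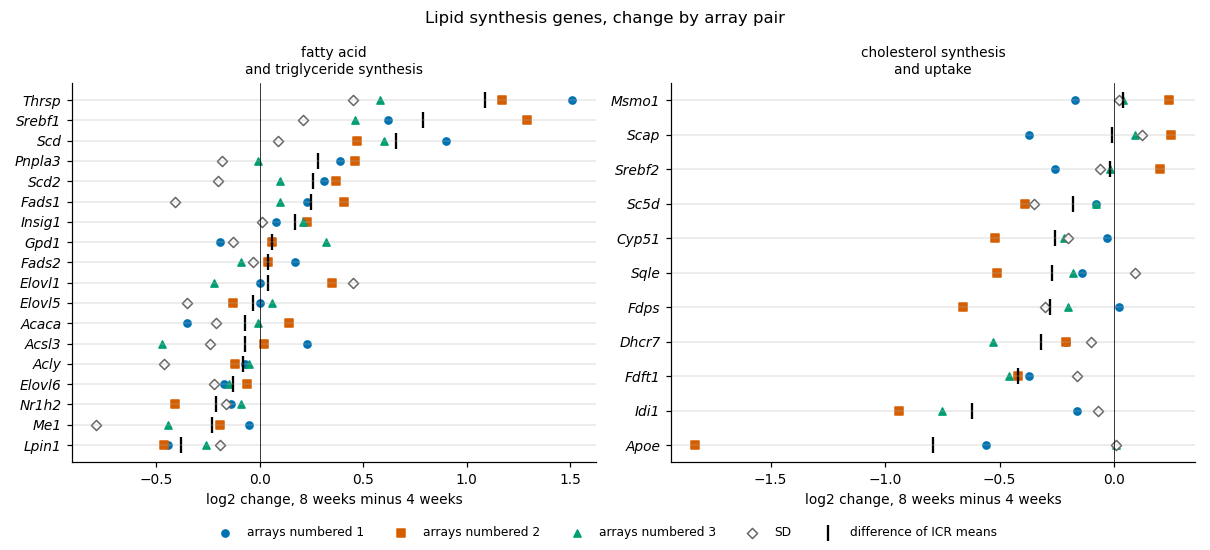
Log2 difference between 8 and 4 weeks (horizontal axes) for the tested genes of fatty acid and triglyceride synthesis (left) and of cholesterol synthesis and uptake (right), with 1 coloured symbol per ICR array pair, an open diamond for SD and a bar for the difference of the ICR means. *Thrsp*, *Srebf1* and *Scd* are above 0 in all 3 pairs, and 10 of the 11 cholesterol genes have a bar below 0.

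For genes of epithelial-mesenchymal transition and matrix, 5 of 19 were higher and 3 lower at an unadjusted p under 0.05, the median was -0.02, and none was called. The study had selected *Anxa8* and *Col1a2* as increased and *Loxl1* as decreased from these same arrays, so nothing is read from these counts. *Anxa8*, an annexin, had 6.71, 5.60 and 6.40 at 4 weeks and 7.24, 6.48 and 6.73 at 8 weeks (difference 0.58, SE 0.13, adjusted p = 0.1), while the SD lens had 5.59 and 5.64. *Col1a2*, a chain of type I collagen, had 5.22, 4.53 and 5.11 and then 5.40, 5.49 and 5.31 (difference 0.44, SE 0.16, adjusted p = 0.251). *Pik3r1*, a regulatory subunit of PI3-kinase, differed by 0.21 (adjusted p = 0.527). On the lower side, *Loxl1*, which crosslinks elastic fibres, differed by -0.76 (adjusted p = 0.0854) and *Tgfb2*, a growth factor that drives this transition, by -0.54 (adjusted p = 0.145).

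Of 12 genes of water and ion transport, *Slc20a2* was called as lower, and the median was 0.11. *Aqp5*, a water channel, had 5.22, 3.65 and 4.46 at 4 weeks and 5.42, 4.63 and 4.71 at 8 weeks (difference 0.47, SE 0.21, adjusted p = 0.351). The groups overlapped, and pair 2 gave 0.97 while the other pairs gave 0.20 and 0.24. *Aqp1* differed by 0.34 (adjusted p = 0.436), and its pairs ran from 0.71 to 0. *Cpm*, carboxypeptidase M, differed by 0.49 (adjusted p = 0.292). *Fxyd6*, a regulator of the sodium pump, was lower in all 3 pairs (difference -0.73, adjusted p = 0.143), with -0.81 in SD.

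Of 24 antioxidant and glutathione genes, none was called, 3 were lower and 1 was higher at an unadjusted p under 0.05, and the median was -0.05. Heat shock genes (15 tested, median -0.11), glycolysis genes (13 tested, median -0.10) and genes of the integrated stress response (18 tested, median -0.20) had no call either. *Hspb1*, a small heat shock protein, had 9.04, 7.88 and 8.20 at 4 weeks and 9.62, 8.63 and 8.54 at 8 weeks (difference 0.55, SE 0.12, adjusted p = 0.0913). *Gdf15*, a stress-induced cytokine, differed by 0.75 (adjusted p = 0.187). Of 26 genes of the lens epithelium, none was called and the median was -0.05.

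In the ciliary body, iris and zonule list and the immediate early gene list, pair 2 stood apart from the other ICR pairs. Of the 26 tested genes of the first none was called, and 11 had reached 5 only on 4-week arrays, 9 of these only on 4-week replicate 2. The values that follow are therefore over all members named on the array, whatever their signal. All 32 of the first list had a difference below 0, with a median of -0.68. The median was -0.50 in pair 1, -1.95 in pair 2 and 0.27 in pair 3. Mean signals over the list were 5.10, 5.74 and 4.36 at 4 weeks and 4.64, 3.96 and 4.64 at 8 weeks, so that 4-week replicate 2 was the highest and 8-week replicate 2 the lowest. *Optc*, opticin, which ciliary epithelium secretes, had pair differences of -0.57, -2.70 and 0.91. The 43 immediate early genes, which are transcribed within minutes of a stimulus, had a median of -0.15. It was 0.17, -1.10 and 0.20 in the 3 pairs, with a mean signal of 5.92 in 4-week replicate 2 and of 4.07 to 4.85 in the other 5 arrays. Of the 32 that were tested, 11 had reached 5 only on 4-week replicate 2, and none was called. Over these 32 the median was -1.42 in pair 2 and -1.75 in SD. The minimum signal had let genes in through the 4-week array of pair 2, so nothing is read from these medians. The SD median over all members was not taken. *Egr1* was at 8.43 on the single SD 4-week array and at 8.79 on 4-week replicate 2. Without 4-week replicate 2 the medians over all members were -0.27 and 0.26, so the immediate early list turned its direction. Of the 11 called genes, 6 had their largest pair difference in pair 2, and the part of these lists in those differences was not tested. Without that array all but *Capn3* lost their call.

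**Figure D4:**
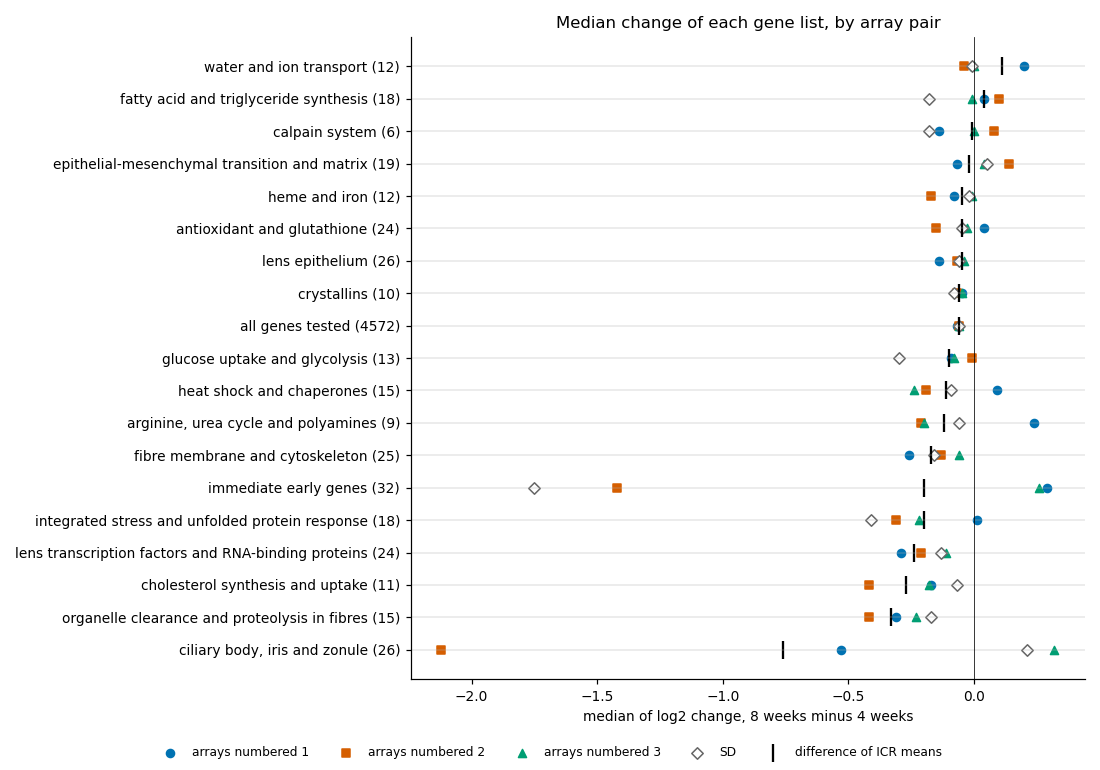
Median log2 difference between 8 and 4 weeks (horizontal axis) for each gene list with 5 or more tested genes, their number in brackets, with 1 coloured symbol per ICR array pair, an open diamond for SD and a bar for the median over genes of the difference of ICR means. The ciliary body, iris and zonule list and the immediate early list are spread over more than 1 log2 unit between pairs, and the other lists lie within 0.5 of 0.

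Whether the change differed from that of the clear SD lens was tested by the difference between the ICR and SD changes, with the SD spread taken to be that of ICR since SD has 1 array an age. *Pdlim1*, which encodes an actin-associated protein with a PDZ and a LIM domain, was the one gene called (0.0219% of 4572). Its ICR signals were 7.58, 7.02 and 6.79 at 4 weeks and 7.82, 7.26 and 7.40 at 8 weeks, a difference of 0.36, whereas the SD lens went from 6.92 to 5.13 and was at 5.35 at 10 weeks. The ICR change exceeded the SD change by 2.15 (SE 0.24, adjusted p = 0.0216), and this rested on the fall between single SD arrays. Without the block no gene was called (0 genes, 36 at an unadjusted p under 0.05), and 209 genes had an unadjusted p under 0.05 with it. Immediate early genes, which were high on the single SD 4-week array, were among the 209, such as *Ier3* (unadjusted p = 0.00293) and *Egr1* (0.0067). The part of that array in these p-values was not tested. The count of 1 became 0 when 4-week replicate 1, 8-week replicate 1 or 3, or any 10-week replicate was left out, 3 when 4-week replicate 2 was, and 2 when 8-week replicate 2 was. *Eci2*, an enoyl-CoA isomerase of fatty acid oxidation, followed with 5.51, 5.09 and 5.12 in 4-week and 4.83, 4.26 and 4.60 in 8-week ICR lenses, against 4.42 and 5.27 in SD (difference between the changes -1.53, SE 0.24, adjusted p = 0.22).

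All 11 called genes differed in SD in the same direction as in ICR, as did 60.7% of all genes tested. In 10 of the 11 the SD difference was smaller than in each ICR pair, against 27.3% of all genes tested, but the 11 were selected for their ICR differences and nothing is read from this count. The test of the difference called none of them. Its unadjusted p was lowest for *Igf2bp2* (0.00747), *Sipa1l1* (0.0127) and *Osbpl11* (0.0189), whose SD differences were -0.09, -0.05 and -0.12. For *Capn3*, *Hmox1* and *Slc20a2* the SD differences of -1.09, -0.70 and -0.49 were nearer to those in ICR (unadjusted p = 0.176, 0.169 and 0.166).

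**Figure D5:**
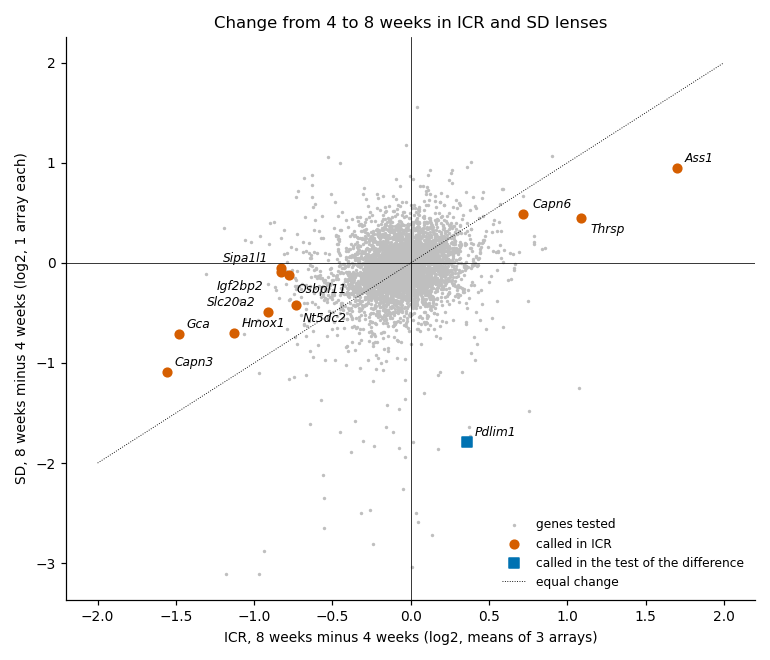
Log2 difference between 8 and 4 weeks in SD (vertical axis, 1 array per age) against that in ICR (horizontal axis, means of 3 arrays) for the 4572 genes tested, with the dotted line at equal change. The 11 called genes lie between the horizontal axis and the dotted line, and *Pdlim1* lies at 0.36 in ICR and -1.79 in SD.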

How the data were processed

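RNA from lenses of male rats was hybridized by the authors to 12 GeneChip Rat Gene 2.0 ST arrays. Groups follow the sample labels. For 36685 probe sets the authors deposited log2 signals, made by RMA normalization in R. Whether the 12 arrays were normalized as one set is not given in the sources used here. In the platform annotation 18511 probe sets have 1 symbol, 575 several and 17599 are not listed. A further 30 were named by matching their signals to the study's supplementary tables. For 292 genes with several probe sets the brightest was used.

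Ages were compared with limma 3.58.1 (lmFit, eBayes; R 4.3.3) over the 9 ICR arrays, with the number in the sample titles as a block. That the numbers pair the arrays was inferred from the data. Deviations from the age means of same-numbered 4- and 8-week arrays correlated at 0.554 to 0.835 across genes, and every same-number pair exceeded 0.1. Differently numbered 4- and 8-week arrays correlated at -0.749 to 0.465. The highest value, 0.835, was that of number 1. Numbers 2 and 3 had 0.554 and 0.565, nearer to 0.465, so their pairing is less certain. SD entered an interaction fit over the 12 arrays. The fit was tested on simulated data. The number of arrays limits the precision.

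The comparison, the gene lists and the rules were chosen with earlier results of these data known. Named genes were those called, the 10 largest rises and falls of one sign in all 3 pairs, up to 4 per list with the smallest p, genes the study names and up to 10 with the smallest interaction p. Values of further list members are also given. A withheld item is not reported here. Alternatives changed the block, filter, scaling, variance model, probe set choice and arrays, and those without the arrays numbered 2 were chosen after seeing the data. Plots were made in matplotlib 3.10.9 (Python 3.11.15).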

Additional observations from a re-analysis of the deposited data

Results flagged for a closer look

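The ICR and SD changes from 4 to 8 weeks differed for *Pdlim1*, by 2.15 on the log2 scale (adjusted p = 0.0216 in the limma interaction fit with the block). It was higher at 8 weeks in 3 of 3 ICR pairs and lower in the single SD comparison, by 1.79. SD has 1 array an age, with no number in its title, so the adjusted p applied the spread within same-numbered ICR arrays to both SD arrays. Without the block the adjusted p was 1, and the difference has no replicate check in SD.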

How the results depend on the processing

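The count of 11 changed genes was 12 with quantile normalization, 16 with array weights and 11 with the mean of a gene's probe sets. It was 0 with no replicate block, 1 with only the 6 arrays of 4 and 8 weeks, 0 with no filter, 41 where 3 arrays had to reach the signal of 5, 2 with cyclic loess, 121 with a variance trend and robust estimation (10 of the 11 among them), 1 with probe sets that have no symbol, 0 without the arrays numbered 1 and 1 without those numbered 2, and 0 to 69 with single arrays left out. The cause was not tested. Past the fold thresholds were 115 genes with no filter and 114 with unnamed probe sets against 30, and 22 to 44 under the other alternatives that keep all arrays, and 40 to 184 with single arrays left out. Non-overlapping genes numbered 1712 with no filter, 1599 without the arrays numbered 1 and 940 without those numbered 2 against 477, and 680 to 1373 with single arrays left out, where fewer arrays have to separate. The test against SD, with 1 call, gave 0 with no replicate block, with no filter and without the arrays numbered 1, 10 without those numbered 2, and 0 to 3 with single arrays left out. The changes of the 11 genes kept their sign under every alternative in which they were tested, and the call under 5 (*Ass1*, *Capn6*, *Nt5dc2*, *Osbpl11*) to 12 (*Capn3*) of them. Differences that changed sign were not called and lay near 0, apart from *Optc*. They were with array weights *Crygb* -0.01, *Ftl1* -0.01, *Mip* -0.01, and with cyclic loess *Capns1* 0.05, *Cryba1* 0.02, *Crygc* 0.02, *Srebf2* 0.05, and with quantile normalization *Capns1* 0.03, *Crygd* -0.03, *Srebf2* 0.06, and without the 3 ICR arrays numbered 1 *Acaca* 0.07, *Mip* -0.09, *Srebf2* 0.09, and without the 3 ICR arrays numbered 2 *Capn7* -0.04, *Foxe3* -0.01, *Optc* 0.17. With single arrays left out the ranges of those that changed sign were *Acaca* -0.17 to 0.07, *Capn7* -0.04 to 0.13, *Capns1* -0.13 to 0.02, *Crygb* -0.05 to 0.07, *Crygd* -0.01 to 0.05, *Foxe3* -0.01 to 0.18, *Ftl1* -0.05 to 0.14, *Mip* -0.07 to 0.08, *Srebf2* -0.13 to 0.08.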
